A study of Homo sapiens with 3 samples.

Results

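The genes described here are the 3 PIM kinases (PIM1, PIM2, PIM3), the 3 PTP4A phosphatases (PTP4A1, PTP4A2, PTP4A3) and the 3 KHDRBS RNA-binding proteins (KHDRBS1, KHDRBS2, KHDRBS3), which are 9 of 20037 protein-coding genes. They were followed in ALL-SIL, an established cell line grown from a human T-cell leukaemia and carrying a rearranged TLX1 gene. Chromatin immunoprecipitation with sequencing (ChIP-seq) was done, in cells with no treatment named in the labels, for 2 histone marks, H3K4me3 and H3K4me1, with 1 library each and 1 input library as background. The members were taken by name, and every peak in the RefSeq span of a gene plus 50 kb on each side was collected. This gave 16 of the 11100 H3K4me3 peaks and 76 of the 62087 H3K4me1 peaks. The families were put together because the length of H3K4me3 at PIM1, PTP4A2 and KHDRBS1 stood out in these same data, so the genes were chosen by that measured length, which is given below as a description and supports nothing.

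H3K4me3 lies over active promoters, and H3K4me1 over enhancers and along the flanks of promoters. Long H3K4me3 domains are known from genes that matter for the identity of a cell. PIM kinases are serine/threonine kinases that are active as soon as they are made, so their amount is set largely by transcription, often downstream of cytokine receptors, JAK kinases and STAT5. They phosphorylate regulators of survival, growth and the cell cycle. PTP4A proteins, also called phosphatases of regenerating liver, are small phosphatases held at membranes by a lipid anchor, where they bind the CNNM magnesium transporters. KHDRBS proteins bind RNA and steer splicing. KHDRBS1 is made in most cells and is a target of Src-family kinases such as LCK and FYN in T cells, while KHDRBS2 and KHDRBS3 are best known from the brain and the testis.

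Stretches upstream of 5 gene starts are shown because the marks divided these genes: PIM1, PTP4A2 and KHDRBS1 carried long H3K4me3, and PIM3 and KHDRBS2 carried none. Each is the 250 bases before the start listed first by RefSeq (GRCh38.p14), read 5′ to 3′ on the gene's strand, with every CpG pair in capitals.
PIM1, chr6:37169902-37170151, plus strand: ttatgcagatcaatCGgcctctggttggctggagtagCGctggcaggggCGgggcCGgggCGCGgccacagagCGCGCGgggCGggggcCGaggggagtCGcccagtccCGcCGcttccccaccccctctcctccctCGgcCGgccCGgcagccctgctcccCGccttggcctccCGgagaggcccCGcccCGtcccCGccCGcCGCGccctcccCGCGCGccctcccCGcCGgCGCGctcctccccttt
PIM3, chr22:49960522-49960771, plus strand: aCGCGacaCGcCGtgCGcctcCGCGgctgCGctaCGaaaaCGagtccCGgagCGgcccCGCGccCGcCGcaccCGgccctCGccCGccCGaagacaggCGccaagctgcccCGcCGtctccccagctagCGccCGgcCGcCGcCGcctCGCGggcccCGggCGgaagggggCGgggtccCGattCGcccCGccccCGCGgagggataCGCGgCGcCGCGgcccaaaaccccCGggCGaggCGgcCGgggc
PTP4A2, chr1:31938369-31938618, minus strand: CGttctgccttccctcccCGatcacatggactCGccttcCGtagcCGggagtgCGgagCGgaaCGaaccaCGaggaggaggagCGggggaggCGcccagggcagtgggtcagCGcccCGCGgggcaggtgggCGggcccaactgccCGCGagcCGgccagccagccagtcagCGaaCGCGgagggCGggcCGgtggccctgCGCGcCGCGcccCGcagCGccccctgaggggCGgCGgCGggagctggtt
KHDRBS1, chr1:32013618-32013867, plus strand: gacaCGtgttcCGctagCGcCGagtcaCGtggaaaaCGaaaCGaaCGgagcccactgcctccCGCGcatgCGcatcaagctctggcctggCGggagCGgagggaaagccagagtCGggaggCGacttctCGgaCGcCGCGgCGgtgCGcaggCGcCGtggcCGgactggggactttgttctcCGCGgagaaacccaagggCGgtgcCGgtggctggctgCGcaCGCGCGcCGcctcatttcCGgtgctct
KHDRBS2, chr6:62286226-62286475, minus strand: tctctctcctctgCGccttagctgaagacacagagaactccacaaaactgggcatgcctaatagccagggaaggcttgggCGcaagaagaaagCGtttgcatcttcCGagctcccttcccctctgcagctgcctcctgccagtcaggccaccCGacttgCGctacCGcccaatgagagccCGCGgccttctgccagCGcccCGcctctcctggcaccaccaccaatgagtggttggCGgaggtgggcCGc
PIM3, without H3K4me3, had the most CpG pairs of the 7 members in the RefSeq promoter table, 47, at a GC content of 82.0%. PIM1 had 32 CpG pairs (79.6% GC), PTP4A2 32 (76.8%), KHDRBS1 34 (68.8%), PTP4A1 29 (72.4%), PIM2 15 (61.2%) and KHDRBS2 13 (62.4%). The median over 15843 protein-coding promoters was 17. Only 60 of them had at least as many CpG pairs as PIM3, and 34 of those (56.7%) had H3K4me3 within 1 kb of the start, against 51.9% of all the promoters. The share with H3K4me3 was 65.7% at a GC content from 70 to 80% and 51.0% at 80% or more, and whether GC content had a part in the calls at PIM3 was not tested. KHDRBS2 had a CpG number at which H3K4me3 was also common, since 208 of 338 promoters with 13 pairs (61.5%) had it.

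In these same windows, read on both strands, the STAT dimer motif TTCNNNGAA was found in 0 of the 7 members and in 6.12% of all promoters. The GC box GGGCGG was found in 7 of 7 (4 matches at PIM1 and at PIM3, 3 at PTP4A1 and at PTP4A2, 1 at PIM2, KHDRBS1 and KHDRBS2) and in 56.0% of all promoters. A TATAAA motif was found at PTP4A1 alone among the 7, and in 9.23% of all promoters. These are matches of letters and not measured sites.

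The libraries held 34813455 filtered tags for H3K4me1, 30823016 for H3K4me3 and 18859011 for the input. Peaks had a median length of 1397 bp for H3K4me3 and 1020 bp for H3K4me1, and a median fold of 4.53 and 2.37. Fold and pileup are the authors' own values, means over a whole peak. Pileup counts overlapping fragments. Fold is the ratio of pileup to the local background, each with a constant added by the caller, so pileup over fold only approximates the background. The T-cell label was checked on marker genes. H3K4me3 was within 1 kb of a start at 8 of 10 T-lineage markers (not at CD2 and CD5). Among 12 markers of other cells it was there at 1, the fibroblast gene PDGFRB (50.4% of all protein-coding genes). H3K4me3 touched the span plus 1 kb at 9 of 10 and 2 of 12 (53.4% of all genes). H3K4me1 touched it at 10 of 10 and 8 of 12 (63.4% of all genes), so it separated these lists less. With 1 library per mark no value below has a replicate error, and no difference between genes was tested. No RNA was measured.

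H3K4me3 was at the start of 5 of the 9 genes: PIM1, PIM2, PTP4A1, PTP4A2 and KHDRBS1. The start counted as marked if a peak reached within 1 kb of it, as at 50.4% of all protein-coding genes. Counting a peak anywhere in the span plus 1 kb on each side added PTP4A3, which made 6 of 9 (53.4% of all genes). PIM3, KHDRBS2 and KHDRBS3 had no H3K4me3 by either count. Each family held a gene with a long domain, which the choice of the genes fixes, beside relatives with a shorter domain or none.

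Peaks separated by up to 1 kb were joined into domains, and a domain was taken as broad from 4 kb. The longest domain touching each gene was 16.1 kb at PTP4A2, 11.3 kb at KHDRBS1, 6.06 kb at PIM1, 4.13 kb at PTP4A3, 2.63 kb at PTP4A1 and 2100 bp at PIM2. The median over all protein-coding genes with H3K4me3 was 1576 bp, so PIM2 and PTP4A1 also lay above it. Broad domains touched 4 of the 9 genes, against 1.87% of all genes, a contrast that the choice of the genes fixes. PTP4A3, at 4128 bp, was the member just above the limit and PTP4A1, at 2630 bp, the member just below it.

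**Figure D1:**
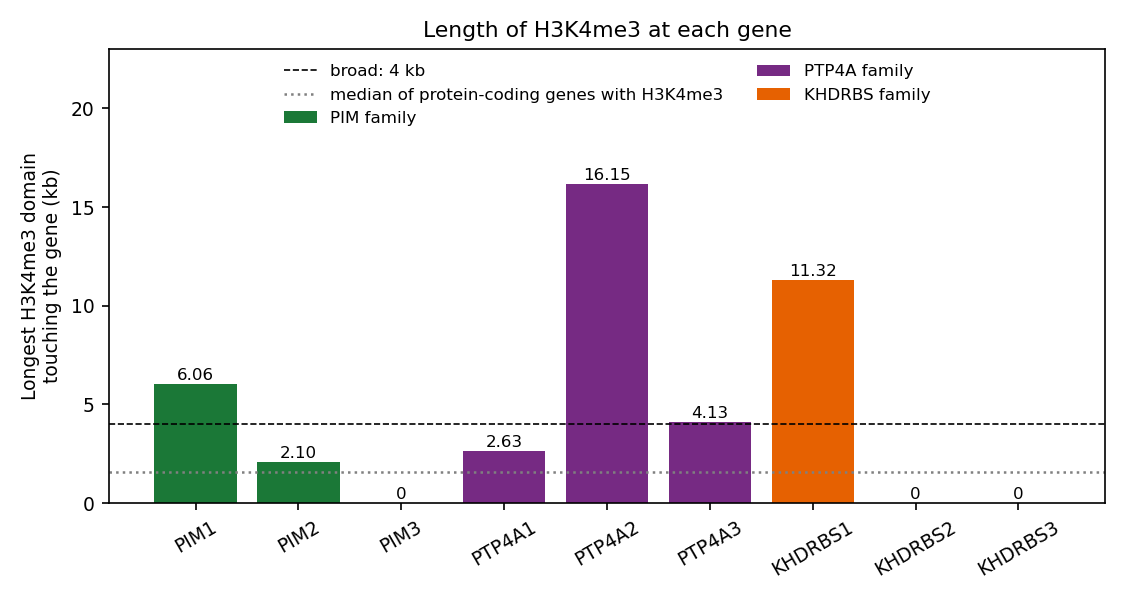
Length in kb of the longest H3K4me3 domain touching each of the 9 genes (bars, coloured by family), with the 4 kb limit for broad domains (dashed) and the median of protein-coding genes with H3K4me3 (dotted). PTP4A2, KHDRBS1 and PIM1 led their families with 16.1, 11.3 and 6.06 kb, and PIM3, KHDRBS2 and KHDRBS3 are at 0.

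PIM1, the best known of the PIM kinases in lymphoid tumours, is a short gene of 5277 bp (chromosome 6, 37170152 to 37175428). Its H3K4me3 was a single peak (37169108 to 37175164, 6057 bp, pileup 12.8, fold 5.03) that began 1044 bp upstream of the start and covered 95.0% of the gene. A short H3K4me1 peak of 653 bp, with a fold of 4.91, ended 165 bp before its upstream edge. On the other side, an H3K4me1 peak of 5055 bp overlapped it from 2.61 kb downstream of the start and ran past the gene's end. H3K4me1 covered 39.6% of the PIM1 domain, which placed it among the 28 of 315 broad domains that were covered to at least that degree.

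Beyond the end of PIM1, H3K4me1 peaks of 14.7 kb and 10.8 kb followed at 9.95 and 31.5 kb from the start, the first with a fold of 1.84 and the other with 2.21. They were thus long but weak, below the median fold of the list. Peaks of 10 kb or more made up 1.68% of the H3K4me1 list, and 7.24% of protein-coding genes had such a peak in their window, as did 3 of the 9 genes here. The window of PIM1 held 8 H3K4me1 peaks in all, of which 5 lay downstream of its start. Its only other H3K4me3 peak was 705 bp long, lay 52.2 kb downstream inside TMEM217 and TMEM217B and away from their starts, and was entirely covered by H3K4me1. That short peak had a fold of 12.2, exceeded by 0.523% of H3K4me3 peaks.

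PIM2, the relative of PIM1 on the X chromosome (48913182 to 48919024), had a domain of 2100 bp over its start, from 498 bp upstream to 1601 bp downstream. Its mean pileup of 12.5 and mean fold of 5.85 were close to the 12.8 and 5.03 of PIM1. These are means over peaks of unlike length, so the heights of the peak summits were not compared. H3K4me1 flanked it on both sides, 155 bp away upstream and 489 bp away downstream, and covered 0% of it. The window held 11 H3K4me1 peaks, the longest of 7662 bp, and 3 more H3K4me3 peaks at the starts of neighbours: PQBP1 and TIMM17B (1649 bp), SLC35A2 (1107 bp) and OTUD5 (2189 bp). The domain of 2100 bp overlapped PIM2 alone among protein-coding and lncRNA genes, with no other listed start within 1 kb. The H3K4me1 peaks of this gene-dense window cannot be assigned to PIM2 by position alone.

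PIM3 (chromosome 22, 49960772 to 49964072) had no H3K4me3 peak in the gene or at its start. The only H3K4me3 peak in its window, of 1160 bp at a fold of 4.04, lay more than 40 kb upstream, at the starts of ALG12 and CRELD2. It had 6 H3K4me1 peaks, with folds from 1.64 to 3.15. The strongest of them, of 792 bp, covered the end of the gene, from 2.91 to 3.70 kb downstream of the start. The PIM family thus ranged from a domain over nearly the whole gene at PIM1 to a gene marked only by H3K4me1 at its end at PIM3.

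**Figure D2:**
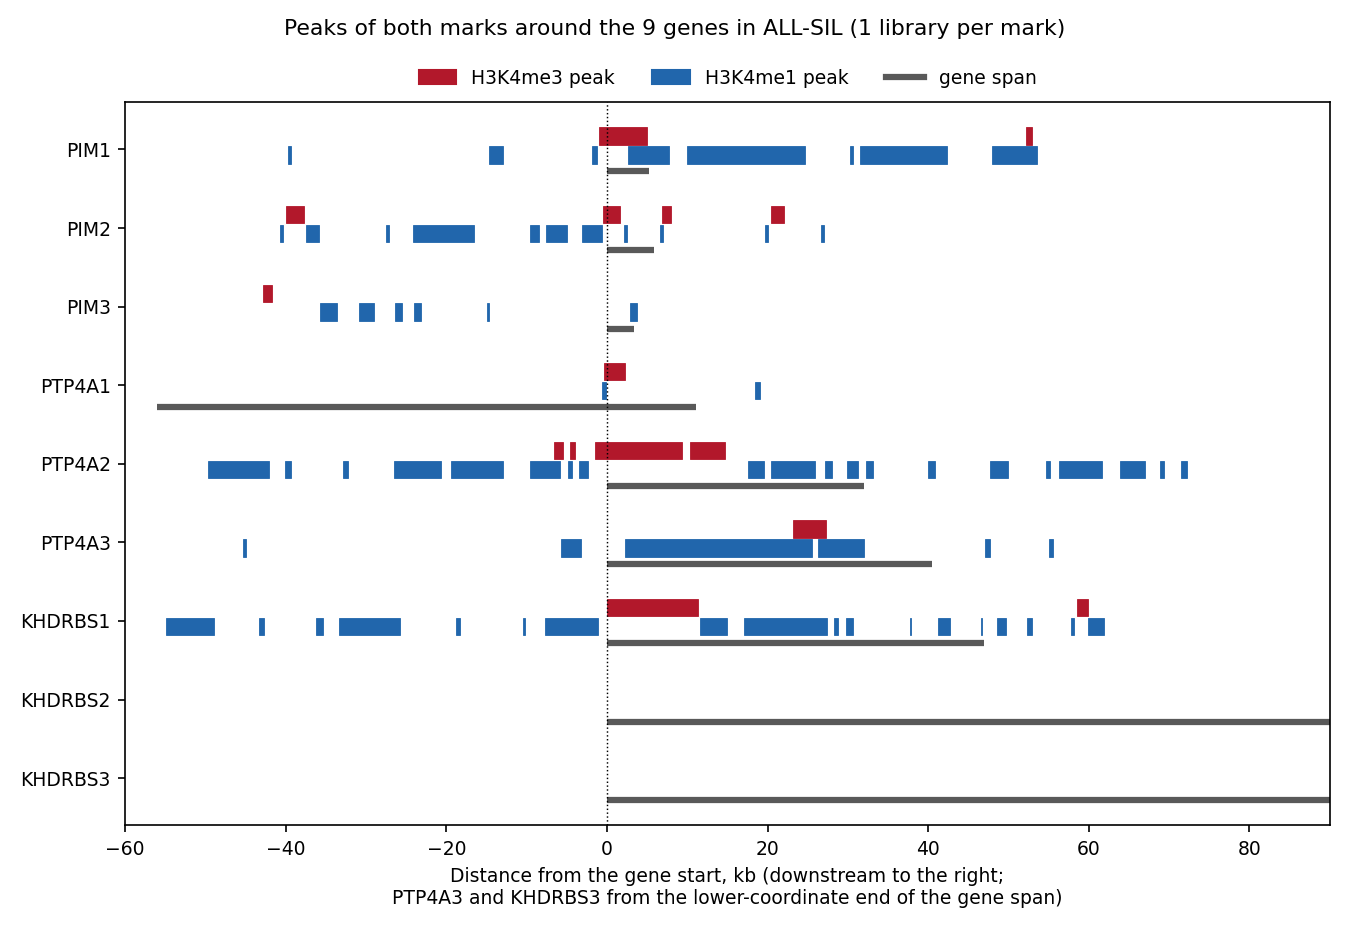
Peaks of H3K4me3 (red) and H3K4me1 (blue) from 60 kb before to 90 kb after the start of each gene, drawn in the direction of transcription, with the gene span in grey; PTP4A3 and KHDRBS3, which are not in the promoter table, are drawn from the lower-coordinate end of the span. H3K4me3 runs from the start into the gene at PIM1, PTP4A2 and KHDRBS1, lies inside H3K4me1 at PTP4A3, and is absent from the PIM3, KHDRBS2 and KHDRBS3 genes.

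PTP4A2, a widely expressed phosphatase of the family, had the longest domain of the 9 genes (chromosome 1, 31923686 to 31939834, 16149 bp), which ranked 3 among 11036 domains. It joined a peak of 10792 bp over the start (fold 5.45) with a peak of 4358 bp deeper in the gene (fold 7.16). The gap between them was 999 bp, just inside the joining limit. Without joining, the longest peak was 10.8 kb, and with gaps of up to 3 kb joined it became 21.3 kb. The domain reached 1466 bp upstream of the start and 14.7 kb into the gene. It covered 46.0% of the gene with the joined gap counted, and the peaks alone covered 42.8%.

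H3K4me1 covered 0% of the PTP4A2 domain, as of 102 of the 315 broad domains (32.4%). The nearest H3K4me1 lay 944 bp beyond the upstream edge and 2890 bp beyond the downstream edge, against a median of 149.5 bp over 630 edges of broad domains. Upstream, 2 further H3K4me3 peaks of 1186 and 563 bp lay between 4.04 and 6.66 kb from the start, at no annotated start, and 54.2% of that stretch was covered by H3K4me1. The window held 20 H3K4me1 peaks, the highest number of the 9 genes, against a median of 5 over all protein-coding genes.

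PTP4A1 (chromosome 6, 63516440 to 63583588) had a domain of 2630 bp at a fold of 5.85, from 438 bp upstream to 2191 bp downstream of the start listed first. The gene has 4 listed starts, and no other H3K4me3 peak lay in its window, so the more distant ones had none. The domain also lay over LGSN, LOC124901228 and LOC128125822, which overlap PTP4A1 there. For both LOC genes a listed start, or an end of the span, lay within 1 kb of it. The mark therefore cannot be assigned to PTP4A1 by position alone. A strong H3K4me1 peak of 570 bp, with a fold of 4.87, overlapped the upstream edge. The next lay 16.3 kb beyond the downstream edge, and the window held only these 2 H3K4me1 peaks, which covered 0.665% of it. H3K4me3 at this start, with a mean fold near that of the peak over the start of PTP4A2 (5.85 against 5.45), thus stood in surroundings nearly free of H3K4me1.

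PTP4A3, known from metastatic tumours, carried its marks inside the gene (chromosome 8, 141392021 to 141432454). H3K4me3 was a single peak of 4128 bp (141415155 to 141419282), 23.1 kb from the lower end of the span. The promoter table holds no start for PTP4A3, so only the ends of the span were checked, and a start inside the gene would be missed. Its pileup of 12.6 was close to that of PIM1, but its fold was 2.40 and its −log10 q 3.31, and 1 of 315 broad domains, itself, had a fold that low. Pileup over fold, a rough index of background and not the caller's own value, was 5.23. Its median was 2.82 over broad domains and 4.48 over the 16 broad domains on chromosome 8. This index was higher on this chromosome in general, with a median of 3.54 over its 394 domains against 2.80 on the other autosomes. The median fold of the same domains was 4.65 on chromosome 8 and 4.57 on the other autosomes. Over broad domains it was 4.46 for the 16 on chromosome 8 and 4.71 for all 315. The part of background in the low fold of PTP4A3 was not tested.

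H3K4me1 filled most of PTP4A3. A peak of 23255 bp (fold 2.75) and one of 5763 bp (fold 1.96) covered 71.8% of the gene, the highest share of the 9 genes. The broad call of PTP4A3 ended with a −log10 q of 10, with the upper part of the list by −log10 q and with a limit of 6 kb. H3K4me1 covered 80.1% of its H3K4me3 domain, and 4 of the 315 broad domains, with this one among them, were covered to that degree. The window held 6 H3K4me1 peaks. The PTP4A family thus showed a long domain free of H3K4me1 at PTP4A2, a shorter one at the start of PTP4A1, and a weak one inside H3K4me1 at PTP4A3.

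**Figure D3:**
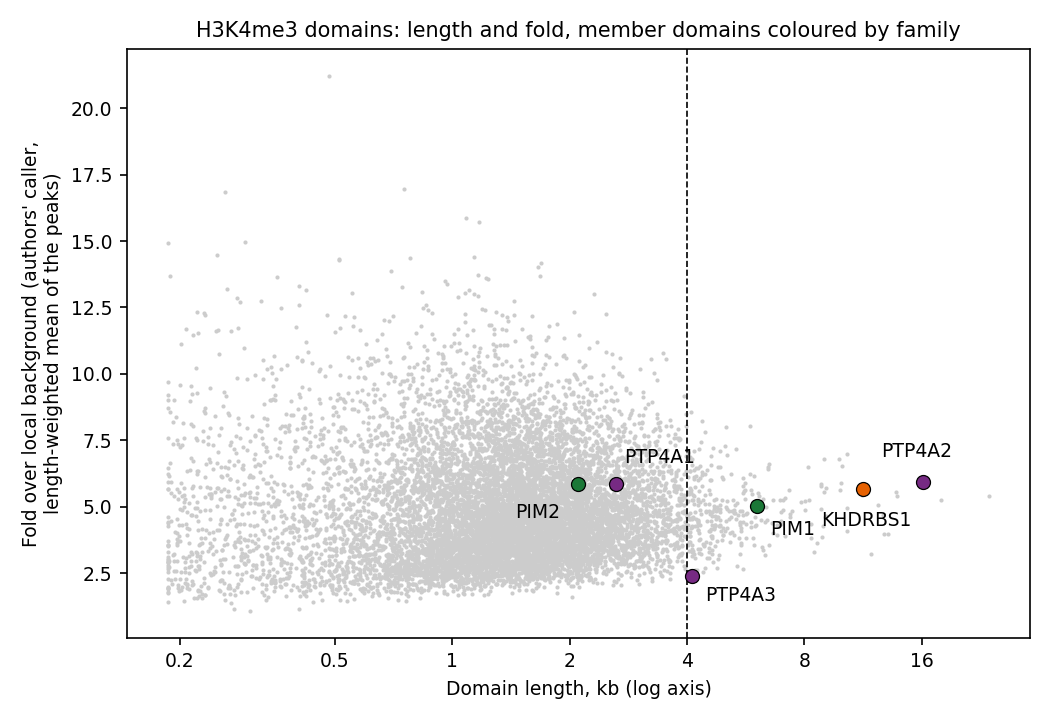
Length (log axis, kb) and fold over local background of all 11036 H3K4me3 domains (grey), with the 6 domains touching a member coloured by family and the 4 kb limit dashed. The domains of PIM2, PTP4A1, PIM1, KHDRBS1 and PTP4A2 lie between fold 5.03 and 5.94 over lengths from 2100 bp to 16.1 kb, and PTP4A3 lies apart at 2.40.

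KHDRBS1, the widely expressed member of its family, had a single H3K4me3 peak of 11320 bp (chromosome 1, 32013854 to 32025173, pileup 15.7, fold 5.68) that ranked 11 among all domains. It began 14 bp upstream of the start and ran 11.3 kb into the gene, over 24.1% of its 46983 bp. Of 264 genes with a broad domain within 1 kb of the start listed first, 9 with KHDRBS1 among them had a domain that reached no more than 14 bp upstream. In the others of these 9 the domain began downstream of the listed start and did not cover it. The median reach over the 264 genes was 1433 bp upstream and 3418.5 bp downstream. At least as much downstream reach was found in 46 of the 264 for PIM1, in 3 for KHDRBS1 and in 1 for PTP4A2, each count including the gene itself.

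H3K4me1 covered 0% of the KHDRBS1 domain, as at PTP4A2. It flanked the domain 1141 bp away upstream, with a peak of 6628 bp, and 284 bp away downstream, with a peak of 3361 bp. A further H3K4me1 peak of 10252 bp at a fold of 3.25 followed inside the gene, from 17.1 to 27.4 kb. The window held 19 H3K4me1 peaks, and 2 other H3K4me3 peaks of 1331 and 1557 bp at the starts of the neighbours TMEM39B and KPNA6.

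KHDRBS2 (chromosome 6, 61542670 to 62286225), a gene of 744 kb, had no H3K4me3 peak in its window. Its 8 H3K4me1 peaks were short, from 201 to 1162 bp, and the closest to the start lay 243 kb downstream. They amounted to 0.948 per 100 kb of its window, against a median of 3.63 over all protein-coding genes. KHDRBS3 (chromosome 8, 135457456 to 135656516) had no peak of either mark in its window, as did 16.3% of protein-coding genes. The index of background given above was taken from called H3K4me3 domains, so it has no value at KHDRBS3. Whether background had a part in the lack of calls there was not tested.

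H3K4me1 touched 8 of the 9 genes, all but KHDRBS3, against 63.4% of all protein-coding genes. It was not the mark the rule names, but genes with long H3K4me3 had more H3K4me1 across the genome as well, so the shares that follow are not free of the choice of genes. At the start itself it was found at 2 of 9, PIM2 and PTP4A1, against 40.5%. Its share of the window was 38.3% at PTP4A2, 37.3% at PIM1, 27.2% at KHDRBS1, 23.4% at PTP4A3, 16.9% at PIM2, 6.59% at PIM3, 0.665% at PTP4A1, 0.563% at KHDRBS2 and 0% at KHDRBS3. The genes with a broad H3K4me3 domain were thus the upper 4 in H3K4me1, with PTP4A3, whose broad call depended on the settings, as the lowest of them. Neighbours in this order cannot be separated without replicates.

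The same order held across the genome as a description. The median H3K4me1 share was 16.6% for the 374 protein-coding genes with a broad domain, 6.73% for the 10327 with a shorter one and 0.939% for the 9336 with none. Against these classes, PTP4A2, PIM1, KHDRBS1 and PTP4A3 lay above the median of genes with a broad domain. Of the genes with a shorter domain, PIM2 lay above the upper quartile of 13.6% and PTP4A1 below the lower quartile of 2.93%. PIM3 lay above the upper quartile of unmarked genes, 5.20%.

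**Figure D4:**
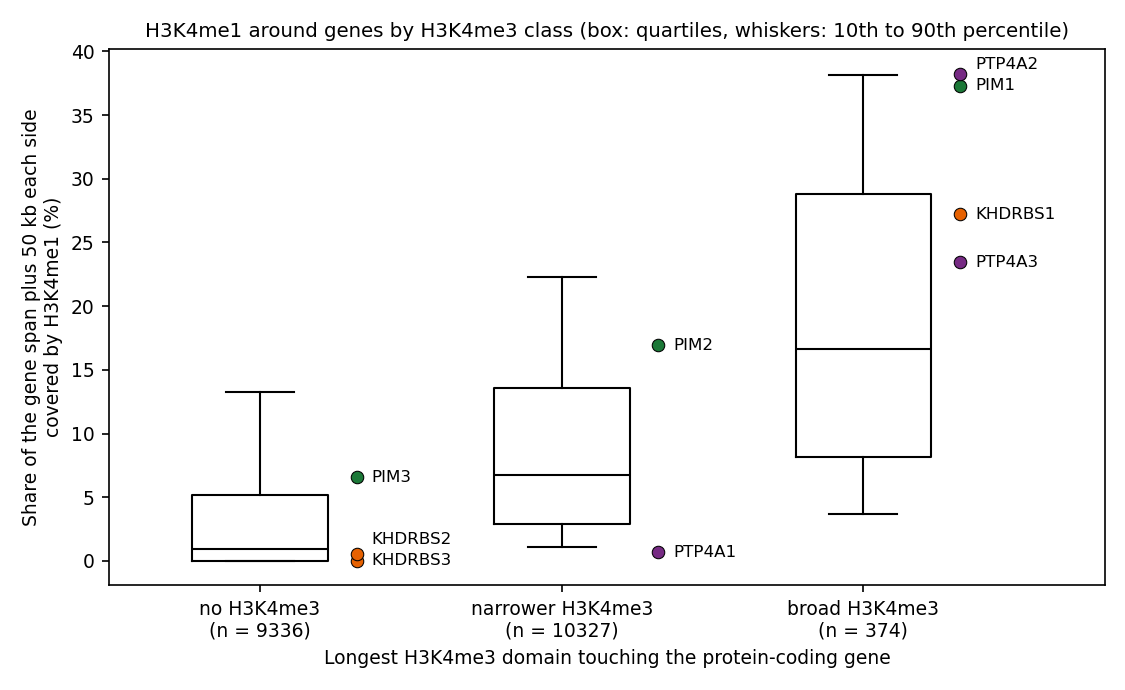
Share of the gene span plus 50 kb on each side covered by H3K4me1 for protein-coding genes without H3K4me3, with a domain under 4 kb and with a broad domain (boxes with quartiles, whiskers at the 10th and 90th percentile), with the 9 genes as points. The 4 genes with a broad domain lie between 23.4 and 38.3%, above the median of their class (16.6%).

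PTP4A2 and KHDRBS1 are neighbours on chromosome 1. Their starts are separated by 75.5 kb without any annotated gene (31938369 to 32013867), and they are transcribed away from each other. Their broad domains lay 74.0 kb apart, and 47 of the 315 broad domains (14.9%) had another within 100 kb. H3K4me1 covered 45.5% of the stretch between the genes (34.3 kb in 11 peaks). The strongest of these peaks, of 609 bp at a fold of 5.98, lay from 31970577 to 31971185, nearer to PTP4A2 than to KHDRBS1, and 1.68% of the H3K4me1 list had a higher fold. A peak of 5889 bp with a fold of 4.94 lay next to it on the PTP4A2 side. Their windows shared 4 H3K4me1 peaks, so the high H3K4me1 shares of these genes are not independent. No other members shared a peak.

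**Figure D5:**
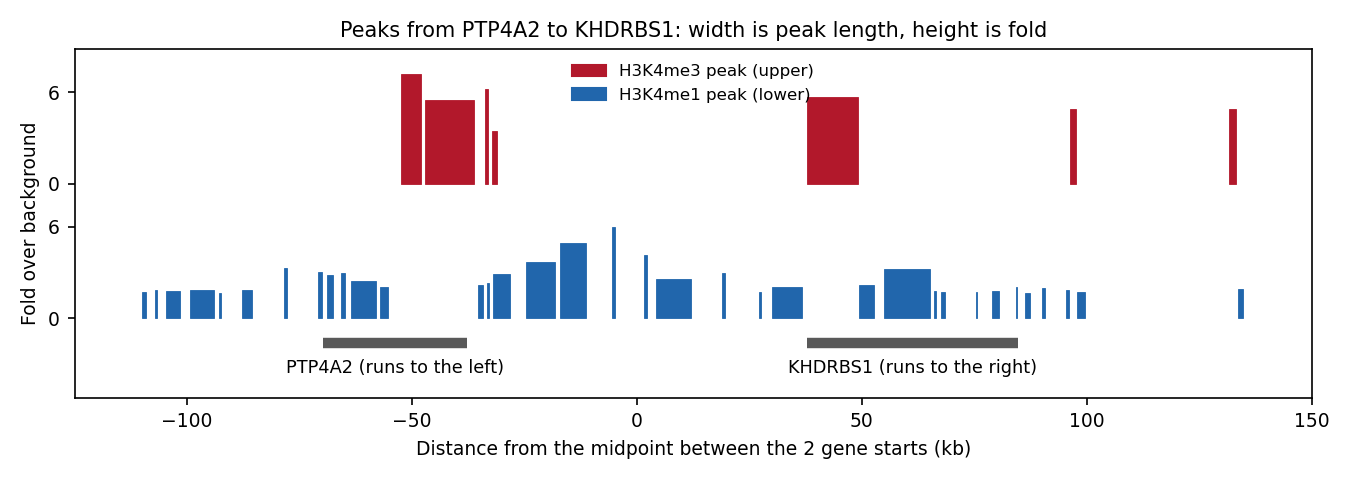
Peaks of H3K4me3 (upper) and H3K4me1 (lower) from PTP4A2 to KHDRBS1, placed by distance in kb from the midpoint between the starts, with peak length as width and the authors' fold as height. H3K4me1 of highest fold (5.98) lies near the middle of the stretch, and both H3K4me3 domains run away from it into their genes.

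The genes closest in H3K4me3 length were listed as a measure of likeness, from the longest domain touching each protein-coding gene. Around PIM1 these were STX10 and its neighbour IER2, which share a domain (6.12 kb), and MID1IP1 (6.08 kb) above, and HERPUD1 (6.03 kb) and the neighbours UGP2 and WDPCP with a shared domain (5.98 kb) below. Around KHDRBS1 they were GPR19, with the domain of 12.8 kb that CDKN1B and APOLD1 share, and the cohesin gene RAD21 (11.8 kb) above, and TSPOAP1 (11.3 kb) and the cell cycle kinase gene CDK6 (10.3 kb) below. Around PTP4A2 there was only MYO18B (17.9 kb) above, and below it came the T-lineage factor BCL11B (13.7 kb) and TLX1 (13.1 kb). H3K4me1 differed among genes alike in this length: it covered 36.1% of the window of BCL11B and 0.630% of that of TLX1, against 38.3% at PTP4A2. As TLX1 is rearranged in this line, its window on the reference genome need not match the surroundings of the rearranged copy.

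Known partners of the 3 families, a list that was drawn up with earlier results of these data known, were mostly marked. Of 33 partner genes, 29 had H3K4me3 within 1 kb of a start (50.4% of all protein-coding genes), 31 had H3K4me1 touching the gene (63.4%) and 5 had a broad domain (1.87%). Their median longest domain was 2002 bp. The partners without H3K4me3 at a start were the receptor gene IL7R, CDKN1A, CNNM1 and the kinase gene SRC.

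Upstream of PIM, 7 of 8 genes were marked at the start, against 50.4% of all protein-coding genes. IL2RG, the common cytokine receptor chain, and SOCS1, an inhibitor of JAK kinases, had broad domains of 4.20 and 4.73 kb. STAT5A and STAT5B, which switch on PIM1 in many blood cells, had domains of 1.52 and 2.00 kb, and JAK1 and JAK3 of 1.46 and 0.733 kb. IL7R had none, with 13 H3K4me1 peaks in its window.

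Of the PIM substrates, 9 of 10 were marked at the start, against the same 50.4%. CDKN1B, a cell cycle inhibitor, lay under 12.8 kb of H3K4me3 and MYC under 6.37 kb. FOXO3, BAD and AKT1S1, with roles in survival and growth signalling, had domains of 3.13, 2.91 and 2.81 kb. CDKN1A, the relative of CDKN1B, had 312 bp of H3K4me3 away from its start.

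Among the CNNM transporters bound by PTP4A proteins, CNNM3, CNNM2 and CNNM4 had domains of 1.86, 1.57 and 0.937 kb, and CNNM1 had none. The STAR-family relatives of KHDRBS1, QKI and SF1, had 3.79 and 2.30 kb. Of its kinases and adaptors, FYN had 3.55 kb and LCK 2.25 kb, GRB2 2.59 kb and PLCG1 2.64 kb, while SRC had none. Among splicing targets, BCL2L1, an apoptosis regulator, had a broad domain of 4.75 kb and CD44 a domain of 0.976 kb.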

How the data were processed

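Peaks of 1 H3K4me1 and 1 H3K4me3 library were called by the authors with MACS2 2.1.0.20150731 in broad mode against the same input library, per the file headers (q of 0.1 for broad and 0.05 for strong regions, 1 tag kept per position, the larger library scaled to the smaller). The submitters' processing notes name GRCh38 as the build. STAR appears in the alignment paths, per the file headers, with settings not given in the sources used. The deposited pileup is a coverage signal, the deposited fold enrichment a ratio to the local background, and p and q are deposited as −log10 values, each averaged over a peak.

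Gene spans and start sites came from RefSeq tables of GRCh38.p14. Starts were known for 15843 of 20037 protein-coding genes. For the other 4194, which include PTP4A3 and KHDRBS3, both ends of the span were used. Exons were not used. Peaks across gaps of up to 1 kb were joined into domains, with pileup, fold and −log10 q weighted by length. Overlap meant at least 1 bp. Interval counts were computed in Python 3.11.15 with pandas 2.3.3 and checked on simulated intervals. Depth limits which weak peaks could be called, and the input library, the smallest, sets the scale.

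All 9 genes are named, with genes under their broad domains, up to 2 next longer and 2 next shorter genes in domain length with genes sharing their domains, neighbours owning an H3K4me3 peak in a window, and partners with a broad domain or no H3K4me3 at a start. Further partners are given as examples, chosen after their values were seen, and the rest enter the counts. A further partner, beyond the 33 counted, is not reported here. The members and gene lists were chosen with earlier results of these data known. The sequence counts and the comparison by H3K4me3 class were added after the peaks were seen. No test was made, as there is 1 library per mark. Alternatives changed the peak threshold, windows, joining gap and broad limit.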

Additional observations from a re-analysis of the deposited data

How the results depend on the processing

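Counts of the 9 genes with H3K4me3 at the start (4 or 5) or with H3K4me1 touching the gene held within 1.5 times under the alternatives run, except that only 1 gene kept H3K4me1 once a −log10 q of 10 was required. With that limit 2 members had a broad domain (PTP4A2 and KHDRBS1; the peaks of PIM1, at 9.76, and PTP4A3, at 3.31, were lost), the median number of H3K4me1 peaks in a member's window fell from 8 to 0, and the partner genes gave 12 with H3K4me3 at a start and 2 with a broad domain. With peaks at or above the median −log10 q of each list these values were 4 H3K4me1 peaks, 13 partners at a start and 2 broad partners. The lengths at PIM1, PTP4A2 and KHDRBS1 were unchanged there, while PTP4A3 was lost, which left 3 broad members, as did a limit of 6 kb. The H3K4me1 median was 4 with windows of 10 kb, and 8 or 2 partners had a broad domain when the limit was 3 or 6 kb. Of 28 such recomputed counts, 11 moved by over 1.5 times. Shares of all protein-coding genes under these alternatives are not given, so the changed counts cannot be set against the shares above. H3K4me1 is called mostly from weak peaks, so its counts rest on the authors' threshold at this depth. No paired analysis was possible because each mark has 1 library.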
